A study of Mus musculus with 2 samples.

Results

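The cells described here are the adherent GL261 cells in which at least 1 transcript molecule of Spp1 was counted. GL261 is a mouse glioma cell line from the C57BL/6 strain, which the labels call an astrocytoma. Spp1 encodes osteopontin, a secreted phosphorylated glycoprotein that binds integrins and Cd44. A molecule is counted as a unique molecular identifier (UMI). After removal of mitochondrial and ribosomal genes, adherent cells with at least 1000 UMIs and a minimum of genes set in the study's methods were kept, and 490 of the 5051 kept cells held at least 1 UMI of Spp1. The other 4561 kept cells, with 0 UMIs of Spp1, served for comparison. Since the cells were chosen by their own Spp1 counts, the Spp1 level in them describes the choice and is no result.

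Adherent cells grew attached in DMEM that held 10% FBS and penicillin-streptomycin at 1%, and they were taken at about 80% confluency. The study also holds neurosphere cells, free-floating aggregates of the same line grown for 12 days in that medium after Epidermal Growth Factor (EGF) and Fibroblast Growth Factor (FGF), both at 20 ng/ml, and B-27 at 1:50 had been added. Both cultures were trypsinized, the neurospheres were spun down first and also broken up with narrowing pipettes, and the cells were frozen with 10% DMSO before scRNA-Seq. Each culture was sequenced as 1 library of a line that contains no host tissue, so culture, library and depth cannot be told apart, cells are not replicates, and no test was run. Intervals in brackets are exact 95% intervals that cover counting error only. Levels are UMIs summed over the cells of a group and given as CPM, counts per 1000000 UMIs on the genes left.

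The adherent library held 68531063 UMIs in 5764 called cells, of which 46290996 UMIs lay in the kept cells on the genes left. The libraries shared 12 cell barcodes, and no doublets were removed. As to the labelled cell type, some astrocyte genes were found in many cells of both groups and others in few or none. Slc1a3, a glutamate transporter, was at 244 CPM in cells with Spp1 and 387 CPM in the other cells, and S100b, a calcium-binding protein, at 100.6 and 169 CPM. Gfap, the astrocyte intermediate filament, had 2 and 28 UMIs, and Aqp4, the water channel of astrocyte endfeet, had 0 in both. Aldh1l1 was at 2.60 against 3.76 CPM, on 14 and 154 UMIs. The glial lineage factor Sox10 was at 163 and 167 CPM. These astrocyte genes were picked after the counts had been read.

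Osteopontin is made by macrophages, bone-forming cells, injured epithelia and many tumors. In glioma it is known as a ligand for Cd44 and for integrins on tumor cells and on the immune cells around them. The other genes given as marks of these cells encode secreted proteins too. Il11 is a cytokine of the IL-6 family that acts through its own receptor and the shared receptor Il6st (gp130). Areg is a ligand of the EGF receptor, and Lcn2 is a siderophore-binding lipocalin of the acute phase response.

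In the GENCODE annotation of GRCm38, Spp1 (ENSMUSG00000029304) lies at chr5:104435118-104441050 on the plus strand and Areg (ENSMUSG00000029378) at chr5:91139599-91148432 on the plus strand. Il11 (ENSMUSG00000004371) lies at chr7:4772373-4782859 on the minus strand and Lcn2 (ENSMUSG00000026822) at chr2:32384633-32388252 on the minus strand. For each gene, the 250 bases before 1 RefSeq start (GRCm38.p6), the one nearest to the start of the gene's principal GENCODE transcript, were taken because Spp1 chose the cells and the other 3 were given as marks of them. Spp1 and Il11 have 2 RefSeq starts each, and the Il11 window lies inside the bounds of the gene, which another transcript sets. The windows were searched on both strands for TGANTCA, the AP-1 motif, for TGACGTCA, the cAMP response element, and for ACCACA, which reads TGTGGT on the other strand and is the core of the RUNX motif. Capitals mark the match found, and positions count back from that start. The windows are chr5:104434861-104435110 for Spp1, with ACCACA from -128, chr7:4778142-4778391 for Il11, with TGAGTCA from -98, chr5:91139349-91139598 for Areg, with TGACGTCA from -61, and chr2:32387740-32387989 for Lcn2, with no match, which overlaps annotated exons of Lcn2 and is not printed. The minus strand window of Il11 is printed 5′ to 3′ along the gene.
Spp1: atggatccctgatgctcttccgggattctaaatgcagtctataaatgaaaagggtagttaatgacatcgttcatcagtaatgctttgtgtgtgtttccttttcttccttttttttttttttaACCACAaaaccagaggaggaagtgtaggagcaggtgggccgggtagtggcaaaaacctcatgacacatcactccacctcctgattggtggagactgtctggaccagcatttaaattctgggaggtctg
Il11: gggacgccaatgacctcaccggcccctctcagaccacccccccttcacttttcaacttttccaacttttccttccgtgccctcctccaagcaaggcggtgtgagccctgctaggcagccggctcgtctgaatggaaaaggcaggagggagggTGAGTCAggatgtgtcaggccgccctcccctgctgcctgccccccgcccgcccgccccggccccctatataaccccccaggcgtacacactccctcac
Areg: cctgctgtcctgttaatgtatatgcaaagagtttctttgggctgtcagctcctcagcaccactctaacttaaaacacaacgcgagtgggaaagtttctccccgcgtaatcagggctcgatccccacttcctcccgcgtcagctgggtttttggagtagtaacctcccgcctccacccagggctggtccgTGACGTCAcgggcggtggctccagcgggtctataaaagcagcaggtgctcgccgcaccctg
None of the 3 motifs was found in more than 1 of the 4 windows. Among 32851 windows of the same length, 6.75% held TGANTCA, 1.55% TGACGTCA and 14.0% ACCACA. A match is a run of letters and no measured binding.

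Of the kept adherent cells, 9.70% (8.90% to 10.6%) held Spp1. They held 2634 UMIs of it, with 1 as the lowest and the median, 5.38 as the mean and 219 as the highest count per cell. A single UMI was all that 250 of the 490 cells held, and these cells had 9.49% of the Spp1 UMIs. At the other end, 80 cells held over 5 UMIs and 73.2% of the total, and the 49 cells with the most, at least 10 UMIs each, held 65.0%. Spp1 was therefore spread very unevenly among the cells that were counted as having it. Just inside the limit stood the 250 cells with 1 UMI, at 92.5 CPM of Spp1, and just outside it the 4561 cells with 0. The plot of cells by UMIs of Spp1 shows this long tail in both libraries.

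**Figure D1:**
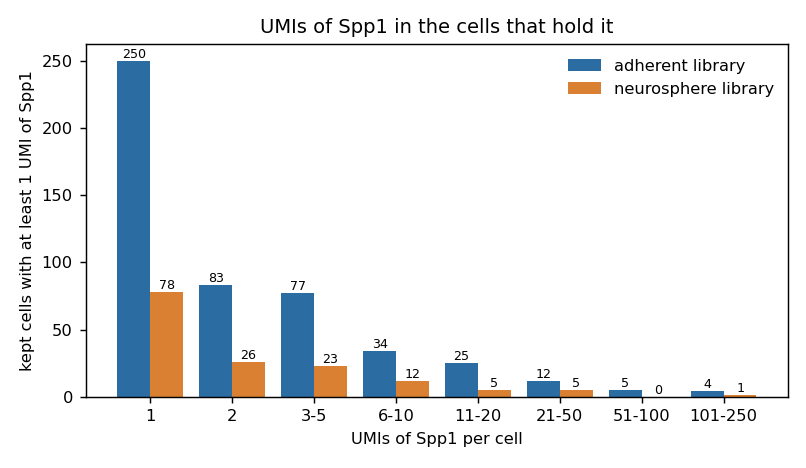
Number of kept cells (y axis) by UMIs of Spp1 per cell (x axis), among cells with at least 1, in the adherent (blue) and the neurosphere library (orange), with the number above each bar. Cells with 1 UMI are the most frequent in both libraries, at 250 and 78, and 4 adherent cells and 1 neurosphere cell lie above 100 UMIs.

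Cells with Spp1 were the deeper cells of the library. Their median was 9575 UMIs and 3227 genes, against 8146 UMIs and 3008 genes in the other cells. In 5 classes of equal size from the shallowest to the deepest kept cells, the share with Spp1 was 5.15%, 8.02%, 8.90%, 11.3% and 15.1%. The level of Spp1 went the same way, at 32.3, 34.9, 50.99, 53.1 and 78.7 CPM. Both describe the Spp1 counts that chose the cells. When each cell was thinned to 5000 UMIs, which left out 587 shallower cells, 310 of 4464 cells still held Spp1, or 6.94% (6.22% to 7.73%). At that depth the cells with Spp1 before thinning had a median of 2204 genes and the other cells 2239. Cells with more UMIs than the 95th percentile of the library, where doublets would be sought, made up 58 of the 490 cells with Spp1 (11.8%) and 195 of the 4561 others (4.28%). The part of doublets in the results was not tested.

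The series holds no cell type that should lack Spp1 and could show what free RNA alone gives. Among the 713 adherent barcodes left out by the cell filter, with a median of 301 UMIs on the genes left, 6 held Spp1 (0.842%). These 6 had 20 UMIs of Spp1, 12 of them in 1 barcode. The lowest share in a cluster of kept cells was 2.08% after thinning, in cluster 6, whose median depth was 11443 UMIs. The part of free RNA in the cells with 1 UMI was not tested.

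Beyond Spp1, the genes at least 2-fold higher in cells with Spp1 included the 3 other marks of the group. Levels were compared as a log2 ratio after 1 CPM had been added to each side, which understates the ratio of low genes. Of 10194 genes with at least 200 UMIs in the kept adherent cells, Spp1 left out, 20 (0.196%) were at least 2-fold higher in cells with Spp1 and 17 (0.167%) at least 2-fold lower. After thinning to 5000 UMIs, with cells chosen on the thinned counts, the numbers were 44 and 111, so neither the number of such genes nor their balance is read here. The median ratio of all these genes was -0.06, and the quartiles were -0.20 and 0.06. All of these genes were counted in the cells that Spp1 chose, so the ratios describe the group and are no test.

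Il11 had the highest ratio of all. It was at 103 CPM (94.8 to 112) in cells with Spp1 and 21.6 CPM (20.2 to 23.1) in the other cells, a log2 ratio of 2.20. Its 556 UMIs lay in 114 of the 490 cells, and the cell with most held 75 of them. After thinning, 15.9% (12.7% to 19.6%) of the cells with Spp1 and 5.14% (4.48% to 5.87%) of the others held a UMI of Il11. The difference in level was thus also one in the share of cells.

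Areg, the EGF receptor ligand, was at 49.4 CPM (43.6 to 55.7) against 18.8 CPM (17.5 to 20.2), a log2 ratio of 1.35. It was found in 76 of the cells with Spp1, and a single cell held 68 of their 266 UMIs (25.6%). The thinned share of cells with Areg was 8.30% (5.94% to 11.2%) against 4.27% (3.66% to 4.94%). Lcn2, the lipocalin, was at 28.0 CPM (23.7 to 32.9) against 8.12 CPM (7.27 to 9.04), a log2 ratio of 1.67, which was 1.03 without cells over the 95th percentile of UMIs. It leaned still more on few cells, with 34 cells holding it and 54 of 151 UMIs (35.8%) in 1 cell. Its thinned share was 5.02% (3.21% to 7.44%) against 1.97% (1.56% to 2.45%).

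In most cells with Spp1 no UMI of the other 3 marks was counted. After thinning, any of Il11, Areg and Lcn2 was found in 115 of 458 cells with Spp1, or 25.1% (21.2% to 29.3%), and in 441 of 4006 other cells, or 11.01% (10.1% to 12.0%). Among cells with Spp1, 15 held exactly 2 of them and 2 held all 3. Among the other cells, 15 held exactly 2 and 0 of 4006 held all 3. At this depth 0 UMIs of a gene in a cell does not show that the gene was silent there.

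Other genes with high ratios were abundant enough to be seen in many cells. Mt3, a metallothionein that binds zinc, was at 432 CPM (415 to 450) against 128 CPM (125 to 132), a log2 ratio of 1.74. Srxn1, the sulfiredoxin that restores oxidized peroxiredoxins, was at 83.3 against 38.0 CPM (1.11). AA467197, the mouse NMES1 gene, whose product belongs to the mitochondrial respiratory chain, was at 259 against 104 CPM (1.31). After thinning, Mt3 was found in 48.9% of cells with Spp1 and 29.0% of the others, and AA467197 in 51.3% and 29.1%.

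Cd68, a glycoprotein of the lysosome membrane, was at 27.7 CPM (23.4 to 32.5) against 8.21 CPM (7.36 to 9.14), a log2 ratio of 1.64. Ccl5, a chemokine that attracts T cells, was at 81.5 against 33.2 CPM (1.27). Acod1, which makes itaconate, was at 9.28 against 3.86 CPM (1.08), but under 2-fold in 4 of 10 other settings, with 0.84 as the lowest. Of the 3, Cd68 was found in most cells, 95 of the 490, while the 439 UMIs of Ccl5 lay in 45 cells and the 50 UMIs of Acod1 in 30.

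Spink2, a secreted serine protease inhibitor, followed Il11 in the order of ratios, at 20.2 CPM (16.6 to 24.4) against 4.28 CPM (3.67 to 4.96), a log2 ratio of 2.01. Stmn4, a stathmin that binds tubulin, was at 13.6 against 3.28 CPM (1.77). Gm13889, a predicted gene, was at 130 against 41.1 CPM (1.64) and was found in 181 of the 490 cells. The remaining genes of the 15 highest were Arhgap22, a GTPase-activating protein (1.36), Dcc, the netrin receptor (1.32), and Nppb, a natriuretic peptide (1.18). For Nppb, 37 of 121 UMIs (30.6%) were in 1 cell, and its ratio was 0.71 without the 1% of cells with most Nppb in each group. Outside the 15, at least 2-fold higher were Ankrd33b, Hebp1, Tmsb4x, Slc30a4 and Ecm1. Tmsb4x, the actin-binding thymosin, was the most abundant gene of the 20, at 1771 against 859 CPM (1.04), and under 2-fold, at 0.95, when the other cells were weighted to the depth of the cells with Spp1.

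The genes with the lowest ratios were mostly low in both groups. Enpp2, which encodes autotaxin, had 6 UMIs in cells with Spp1 and 198 in the others, a log2 ratio of -1.47. Ppp2r2b, a regulatory subunit of protein phosphatase PP2A, was at 24.9 CPM (20.8 to 29.5) against 61.7 CPM (59.3 to 64.2), a log2 ratio of -1.28. Lhfpl3, a gene of oligodendrocyte precursors, was at 14.7 CPM (11.6 to 18.3) against 37.1 CPM (35.3 to 39.0), also -1.28. Pmel, a protein of pigment granules, was at 10.8 against 28.3 CPM (-1.32), and Scrg1 at 8.72 against 24.3 CPM (-1.38). The other 5 of the 10 lowest were Kcnmb4, a subunit of calcium-activated potassium channels (-1.40), Gpr155 (-1.38), Dnm3, a dynamin (-1.34), Mmd2 (-1.30) and Sema3d, a secreted guidance cue (-1.23). At least 2-fold lower besides were Serinc5, Sgcd, Grik2, BC037039, Opcml, Timp4 and Fgfr3.

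Windows of this kind were also looked at for the called genes, and a gene was counted when any of its RefSeq windows held the motif. RefSeq windows matched 16 of the 20 higher and 12 of the 17 lower genes. TGANTCA was present in 5 of the 16, namely AA467197, Srxn1, Ecm1, Il11 and Cd68, and in 0 of the 12, beside 5.22% of the 8109 tested genes with a window. TGACGTCA was present in 1 of the 16 (Areg), in 0 of the 12 and in 3.29% of the tested genes. ACCACA was present in Arhgap22 and Tmsb4x among the higher and Dnm3 among the lower genes, and in 12.3% of the tested genes.

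The cells with Spp1 were not alike, and several of these genes followed how much Spp1 a cell held. Il11 was at 21.6 CPM in cells with 0 UMIs of Spp1, 52.9 with 1, 69.6 with 2, 64.2 with 3 to 5 and 315 (280 to 353) with over 5. In the 80 cells with over 5 UMIs, 75 of 296 UMIs of Il11 were in 1 cell, and the level was 237 CPM without it. Areg was at 18.8, 22.2, 34.3, 48.1 and 144 CPM (120 to 170) over the same classes, and 1 cell held 68 of the 135 UMIs of the last class, whose level was 72.8 CPM without it. Leaving out the highest cell of a class was chosen after seeing the data. Mt3 was at 128, 244, 258, 599 and 1003 CPM (940 to 1069). AA467197 went up by class from 104 to 170, 228, 353 and 463 CPM. For Areg, cells with 1 UMI of Spp1 (16.9 to 28.6) could not be told from cells with 0 (17.5 to 20.2) by counting error.

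The levels of Lcn2 by class rest on few cells. It was at 8.12 CPM in cells with 0 UMIs of Spp1, 7.77 with 1, 63.2 with 2, 17.3 with 3 to 5 and 60.6 with over 5. In the class with 2 UMIs, 54 of the 59 UMIs of Lcn2 were in 1 cell, and the level was 5.53 CPM without it. In the class with over 5, 12 cells held 57 UMIs, and the level was 45.3 CPM without the cell with most. Of the 15 highest genes, 14 were higher at over 5 UMIs of Spp1 than at 1, all but Nppb, beside 48.4% of all genes with the minimum. Of the 10 lowest, 6 were lower at over 5 than at 1, beside 51.6%. The same cells had served to choose these genes, so both counts are descriptions. The median depth was 8146 UMIs in cells with 0 UMIs of Spp1, 9428 with 1 and 10249.5 with over 5.

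**Figure D2:**
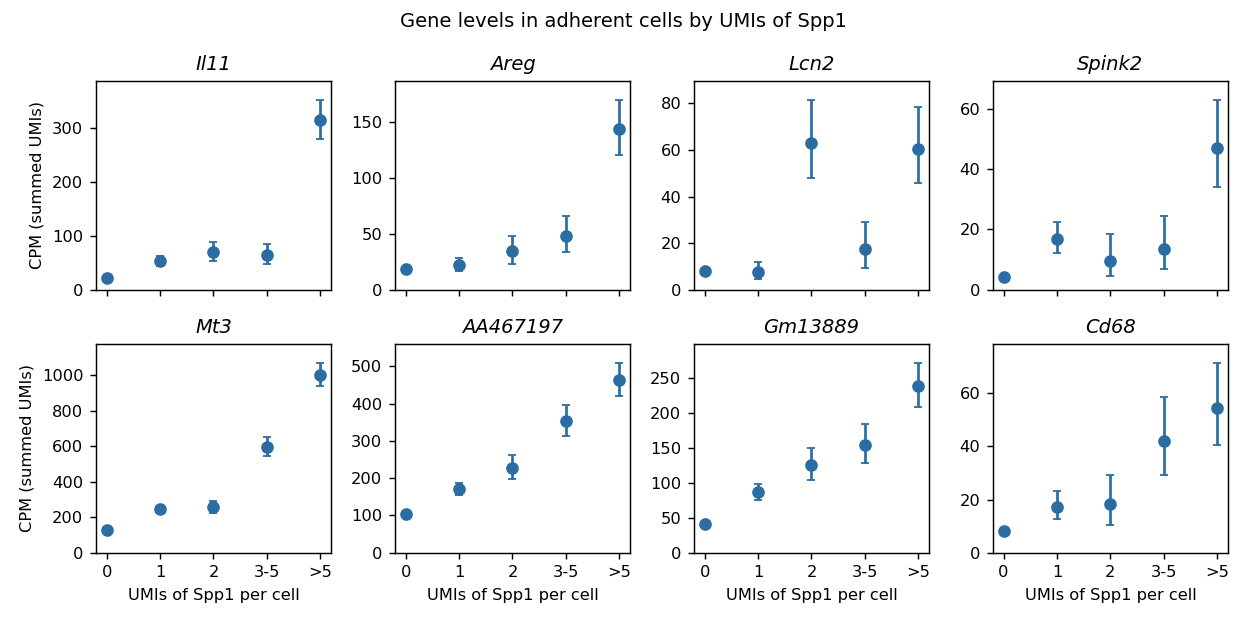
Level of 8 genes in CPM of summed UMIs (y axis, from 0) in adherent cells with 0, 1, 2, 3 to 5 and over 5 UMIs of Spp1 (x axis). Points are the level of the class and bars its exact 95% Poisson interval, which covers counting error only. Mt3, AA467197 and Gm13889 are higher in each class than in the one before, Il11 and Areg are highest at over 5 UMIs, where 1 cell holds 75 of 296 and 68 of 135 UMIs, and the Lcn2 point at 2 UMIs rests on 1 cell with 54 of 59 UMIs.

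Across the 490 cells, the genes whose log level per 10000 UMIs was most like that of Spp1 included Mt1 (Pearson r = 0.32), Mt3 (0.32), Cd63 (0.30), AA467197 (0.30), Cstb (0.29), Cd68 (0.24) and Timp1 (0.24). The cells share a library, and the same measure of Spp1 had r = -0.25 with UMIs per cell. Cd63 is a tetraspanin of late endosomes, Cstb an inhibitor of lysosomal cathepsins, and Timp1 an inhibitor of metalloproteinases. Mt1 was at 1320, 1525, 1524, 2409 and 3480 CPM over the 5 classes of Spp1, and Timp1 at 552, 756, 922, 1054 and 1769 CPM. Il11 came in place 11 of this order, Lcn2 in place 29 and Areg in place 51.

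Integrins and Cd44, through which osteopontin acts, showed no gene at least 2-fold higher or lower among the 7 of 10 with the minimum of UMIs. Their median log2 ratio was -0.11, beside -0.06 over all genes. Cd44 was at 122 against 104 CPM (0.22), Itgav, the alpha chain of several integrins that bind osteopontin, at 81.3 against 119 CPM (-0.54), and Itgb1 at 336 against 362 CPM (-0.11). Itgb5 (0.33), Itga5 (0.13), Itga4 (-0.34) and Itga8 (-0.21) were the others. Itgb3, Itgb6 and Itga9 were under the minimum, with 6, 9 and 3 UMIs in cells with Spp1. Receptor genes were thus present in both groups of cells. The related bone glycoproteins were nearly undetected, with 2 and 1 UMIs of Ibsp, 0 and 1 of Dmp1, 0 and 1 of Mepe and 0 of Dspp in cells with and without Spp1.

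In the IL-6 family list, Il11 was the 1 gene of 8 past 2-fold, and the median was 0.02. Clcf1, another ligand of the family, was at 28.2 against 16.3 CPM (0.76). The receptors Il11ra1 and Il6st were nearly equal in the groups, at 34.7 against 34.5 CPM and 17.4 against 17.1 CPM. Osmr, the oncostatin M receptor, was at 27.1 against 37.7 CPM (-0.46), and Stat3, which relays these signals, at 40.5 against 49.8 CPM (-0.29). Il6 itself had 7 and 45 UMIs and Lif 2 and 17. The ligands Il11 and Clcf1 thus had the highest ratios of the list.

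In the EGF family list 1 ligand stood out. Areg was the 1 gene of 5 past 2-fold, and the median was -0.05. Hbegf, the most abundant ligand of the list, was at 342 against 323 CPM (0.08), Tgfa at 25.6 against 40.9 CPM (-0.65), and the receptor Erbb3 at 30.3 against 54.6 CPM (-0.83). Egfr had 4 and 20 UMIs and so fell under the minimum. Among ERK feedback genes, 0 of 11 passed 2-fold and the median was 0.07, with Dusp4 at 0.84, Dusp5 at 0.66 and Spry1 at -0.54.

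Lcn2 was the 1 gene of 8 past 2-fold among NF-kB targets and acute phase genes, whose median was 0.22. Nfkbia, the inhibitor that NF-kB induces, was at 0.35 and Nfkb2 at 0.23. Of 3 chemokine and colony stimulating factor genes with the minimum, Ccl5 was past 2-fold, Cxcl10 was at 389 against 283 CPM (0.46) and Csf1 at 8.17 against 8.95 CPM (-0.12). The interferon response list had a median of -0.04, with Rsad2 at 0.46 and Ifit3 at -0.28. None of its 10 genes passed 2-fold.

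The AP-1 and immediate early list had 10 of 13 genes above 0 and 0 past 2-fold, with a median of 0.08, while 63.4% of all genes with the minimum were below 0. Its largest ratios were Fosl1 (0.48), Ier3 (0.46), Ier2 (0.31) and Egr1 (0.26). Among matrix degradation genes, Timp1 was at 1006 against 552 CPM (0.86) and Plaur, the urokinase receptor, at 121 against 86.0 CPM (0.49), while Timp3 was at -0.29 and Mmp11 at -0.39. Their list median was -0.08. In the integrated stress response list, Nupr1, a stress-induced chromatin protein, was at 246 against 163 CPM (0.59). In that list 8 of 10 genes were below 0, beside 63.4% of all genes. Nrf2 targets had a median of 0.08 with Srxn1 the 1 gene past 2-fold. Hypoxia genes (0.03), YAP targets and contractile genes (0.02) and p53 targets (-0.01) had medians near 0 and no gene past 2-fold. The matrix degradation and p53 medians changed sign under 3 and 6 of 10 other settings, and those of the EGF family under 2 and of the Spp1 receptors, NF-kB, interferon and YAP lists under 1 each, so their signs are not read here.

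The cell cycle lists held 15 genes each. All 15 G1/S genes were below 0, with a median of -0.17, from -0.32 for Mcm3 to -0.05 for Tyms, and their summed level was 733 against 800 CPM, beside the 63.4% of all genes below 0. After thinning the G1/S median was -0.0041, and under the other settings it lay between -0.25 and -0.10. The G2/M genes had 9 of 15 above 0 and a median of 0.01, with Cenpe at -0.22, and a summed level of 3584 against 3430 CPM. That median changed sign under 4 of the 10 other settings, from -0.13 to 0.05, and its sign is not read either. Ube2c was at 0.26, and at 0.04 when the other cells were weighted to the depth of the cells with Spp1. The mesenchymal and matrix genes had a median of -0.16, with Vim at -0.23 and Sparc at -0.20. None of these passed 2-fold.

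Markers of other cells that make osteopontin were checked. Of 12 immune cell markers, 10 were under the minimum, and Ptprc, the pan-leukocyte marker, had 0 UMIs in cells with Spp1 and 1 in the others. Csf1r had 0 and 5, Aif1 0 and 2, C1qb 0 and 1, and Adgre1, C1qa, Tyrobp and Itgam 0 in both. The list's summed level was 40.3 against 15.04 CPM, of which Cd68 and Cd14 (8.35 against 3.94 CPM) gave most, and its median was 1.28 over those 2 genes. Ptprc, Csf1r, Aif1, C1qb, Adgre1, C1qa, Tyrobp and Itgam were thus at or near 0, while Cd68 and Cd14 were not. The other markers of the list, Lyz2 and Fcer1g, were under the minimum but not at 0. Of 8 markers of bone-forming cells, 2 had the minimum, Phex (0.41) and Runx2 (0.28), and the summed level was 39.0 against 29.7 CPM. Bglap, the osteoblast product osteocalcin, had 0 and 2 UMIs.

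The oligodendrocyte lineage list had 7 genes with the minimum. Of these, 6 were below 0, beside 63.4% of all genes, and 0 were past 2-fold, and the median was -0.33. Mbp, the myelin basic protein, was at 161 against 267 CPM (-0.73), Cspg4 at 11.3 against 17.6 CPM (-0.59), Olig1 at 110 against 145 CPM (-0.40) and Olig2 at 56.6 against 71.5 CPM (-0.33). Sox10 (-0.03) was nearly equal. The only gene of the epithelial keratin list with the minimum was Epcam, at 28.2 against 20.7 CPM (0.43), and Krt8 had 45 and 137 UMIs, at 8.35 against 3.35 CPM.

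**Figure D3:**
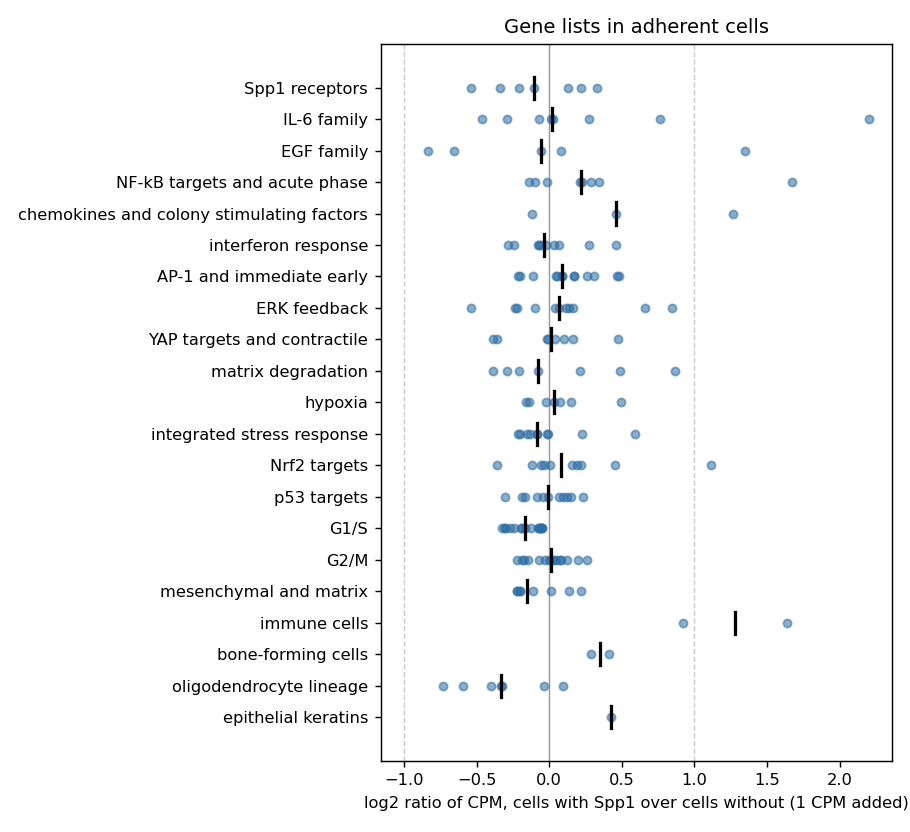
Log2 ratio of CPM, cells with Spp1 over cells without, 1 CPM added (x axis), for the genes of 21 lists with at least 200 UMIs in adherent cells (points, 1 row per list), with the list median as a black bar and dashed lines at 2-fold. Most medians lie near 0, where the median of all genes is -0.06. Farther out are the immune (1.28, over Cd68 and Cd14), chemokine (0.46, over 3 genes), keratin (0.43, Epcam alone), bone-forming (0.35, over 2 genes) and oligodendrocyte lineage lists (-0.33, over 7 genes).

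Cells with Spp1 were found in every adherent cluster but gathered in 3 of them. Clustering of the kept adherent cells, with Spp1 left out of the variable genes, gave 11 clusters. Clusters 1, 2 and 5 held 35.1% of the cells, 59.8% of the cells with Spp1 and 77.3% of the Spp1 UMIs, and 61 of the 80 cells with over 5 UMIs. After thinning, the share with Spp1 was 13.6% (10.9% to 16.7%) in cluster 2, 13.1% (10.3% to 16.4%) in cluster 1 and 10.5% (8.03% to 13.4%) in cluster 5. The next highest was 6.51% (3.84% to 10.2%) in cluster 8, and the lowest 2.08% (0.957% to 3.92%) in cluster 6.

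The 3 clusters had different leading genes. Cluster 1 was led by Cd68, Khdrbs2, Mt3, Trp53inp1 and Il11, and cluster 5 by Areg, Spink2, Lcn2 and Gm13889. Cluster 2 was led by the mitotic genes Ccnf, Nusap1 and Cit, with Vgf, a secreted neuropeptide precursor, among its first 10. Mt3 was at 448 CPM in cluster 1, 289 in cluster 2 and 233 in cluster 5, and at 131 CPM or less in the other 8. Cluster 5 was also the deepest, with a median of 13083 UMIs, beside 6692 in cluster 1 and 9219 in cluster 2. Areg was at 54.96 CPM in cluster 5 and 50.9 in cluster 1 but 10.4 in cluster 2. Cluster 6, led by the mitotic genes Aspm and Cenpe, had Spp1 at 5.44 CPM and 0 of the cells with over 5 UMIs, whereas cluster 2 had Spp1 at 170 CPM. Both clusters were led by mitotic genes, and their Spp1 levels lay far apart.

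**Figure D4:**
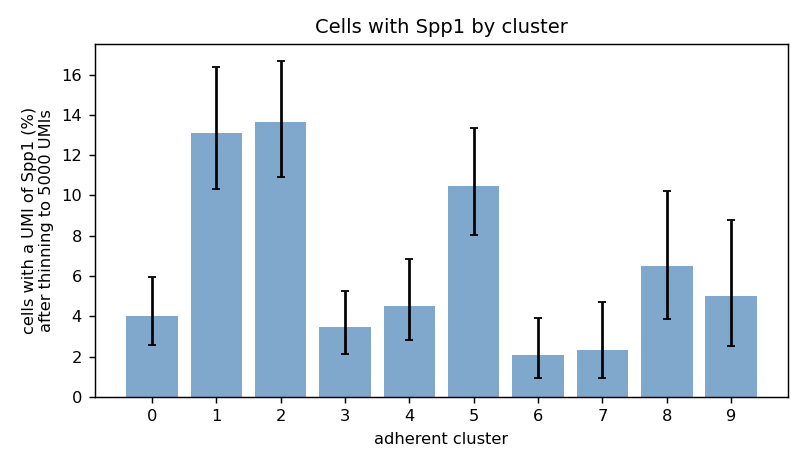
Share of cells with a UMI of Spp1 after thinning each adherent cell to 5000 UMIs, in percent (y axis), in the 10 clusters with cells of that depth (x axis), with exact 95% binomial intervals for counting error. Clusters 1, 2 and 5 lie between 10.5% and 13.6%, and the other 7 between 2.08% and 6.51%.

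The cells with Spp1 also lay near each other. Among the 30 nearest neighbours of a cell with Spp1, a mean of 17.3% held Spp1, against 7.92% around the other cells and 9.70% of all kept cells. The mean was 24.6% around cells with over 5 UMIs and 13.7% around cells with 1. The part of depth, which neighbours may share, was not tested. Cells with 1 UMI were thus in between, nearer to other cells with Spp1 than cells with 0 UMIs were.

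Within clusters, the same ratios were taken between cells with and without Spp1. In the 9 clusters with at least 20 cells with Spp1, Il11 was above the other cells of its cluster in 9, at least 2-fold in 8. The counting interval of its ratio lay above 0 in 7 of the 9, and the others rest on 3 and 5 UMIs in cells with Spp1. Gm13889, Mt3 and AA467197 were above 0 in all 9 as well, with the interval above 0 in 8, 7 and 6. The interval was above 0 in 5 of the 9 clusters for Ccl5, in 4 each for Spink2 and Stmn4, and in 3 each for Areg and Cd68. In the other clusters the interval of these genes lay across 0, in some of them on 0 to 2 UMIs in cells with Spp1. Others had more UMIs. In cluster 5, Areg had 86 UMIs in cells with Spp1, at 50.4 against 56.2 CPM, a log2 ratio of -0.15 (-0.51 to 0.19). Cd68 had 27 UMIs there, with a log2 ratio of 0.59 (-0.07 to 1.30). No direction is read where the interval lay across 0. Lcn2 had UMIs in cells with Spp1 in 4 of the 9 clusters, with log2 ratios of 1.12 in cluster 1, 2.59 in cluster 2, 2.47 in cluster 3 and 1.20 in cluster 5. In clusters 0, 4, 6, 8 and 9 it had 0 UMIs in cells with Spp1 and 28, 7, 6, 3 and 2 in the others, so none is read there either.

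Neurosphere cells give the same measures in a library that the choice of these cells did not use. With the same steps but the higher minimum of genes that the study's methods set for this library, 150 of 4276 kept neurosphere cells held Spp1, or 3.51% (2.98% to 4.10%), and 1.72% (1.34% to 2.16%) after thinning. Spp1 was at 10.3 CPM (9.58 to 11.2) there and at 56.9 CPM (54.7 to 59.1) in the adherent library. The counts per cell had the same shape, with 78 of the 150 cells at 1 UMI, 23 over 5 and 157 as the highest. The neurosphere cells with Spp1 were again deeper, with a median of 18482 UMIs against 12989.

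In neurosphere cells, 100 of 11171 genes (0.895%) were at least 2-fold higher in the 150 cells and 107 (0.958%) at least 2-fold lower, with a median of -0.04. With the other neurosphere cells weighted to the depth of the 150, which was added after seeing the data, these were 99 and 48. The group of 150 cells is small, and its ratios rest on fewer UMIs. Of the 20 genes higher in adherent cells, 13 had the minimum of UMIs in neurosphere cells, 12 of these were above 0 and 8 at least 2-fold higher, where 44.1% of the genes with the minimum in both libraries were above 0. Of the 17 lower genes, 15 had the minimum, 14 were below 0 and 5 at least 2-fold lower, where 55.9% of genes were below 0. At weighted depth 12 of the 13 were above 0 and 7 past 2-fold, and 13 of the 15 were below 0 and 3 past 2-fold. The plot of ratios in both libraries shows the named ones.

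Il11 was at 12.2 against 3.25 CPM in neurosphere cells with and without Spp1 (log2 ratio 1.63), on 37 UMIs in the former. Lcn2 was at 128 against 9.63 CPM (3.61), but 8 of the 150 cells held it and 1 of them had 214 of the 391 UMIs (54.7%). Without the 1% of cells with most Lcn2 in each group the ratio was 2.68. Areg, under the minimum with 25 and 141 UMIs, was at 8.21 against 2.28 CPM (1.49). Mt3 (2.13), AA467197 (2.07), Cd68 (2.06), Stmn4 (1.495), Gm13889 (1.28) and Srxn1 (1.13) were also past 2-fold, Srxn1 not at weighted depth (0.97). Dcc was not (-0.15). Among lower genes, Ppp2r2b (-1.70), Lhfpl3 (-1.61), Pmel (-1.496) and Scrg1 (-1.11) were past 2-fold there too, Scrg1 not at weighted depth (-0.97). Enpp2 was at -0.23 and at 0.56 at weighted depth, so its direction is not read. Cxcl10, at 0.46 in adherent cells, was at 3.29 in neurosphere cells. Whether the ratios differ between the cultures was not tested, as each culture had 1 library.

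**Figure D5:**
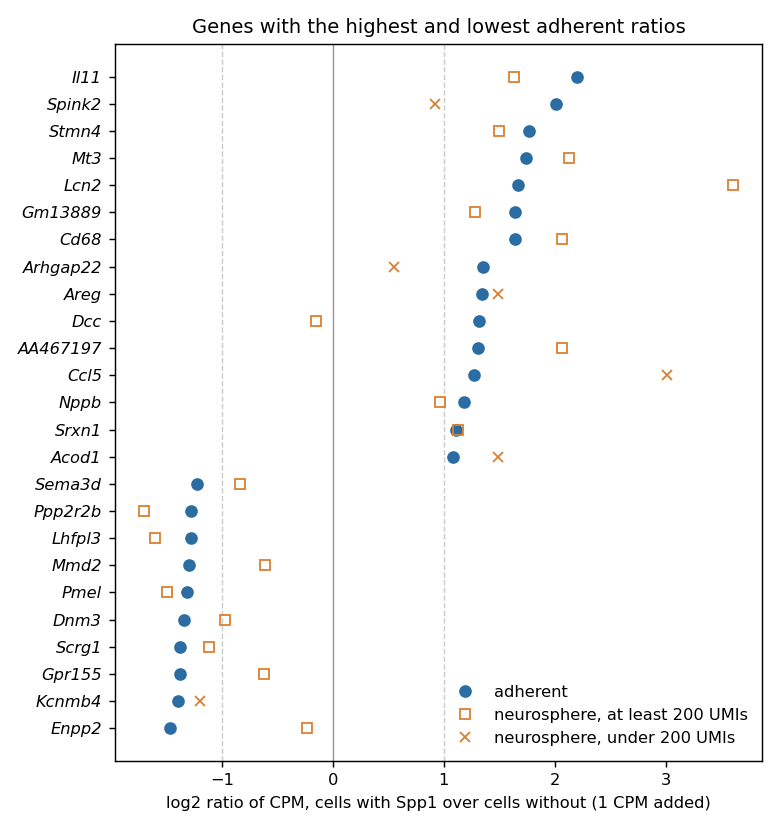
Log2 ratio of CPM, cells with Spp1 over cells without, 1 CPM added (x axis), for the 15 genes with the highest and the 10 with the lowest adherent ratio (blue points), with the neurosphere ratio beside each (orange squares with at least 200 UMIs, crosses with fewer) and dashed lines at 2-fold. Adherent points were chosen for their size, and the neurosphere values lie on the same side of 0 for 24 of the 25 genes, with Dcc at -0.15 as the exception, and for 23 when the other neurosphere cells are weighted to the same depth, which puts Enpp2 at 0.56.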

How the data were processed

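The authors deposited, for every called cell, the raw count of UMIs of each gene from Cell Ranger 7.0.1 on mm10, per the labels (single cell 3' v3 protocol of 10x Genomics). Whether intron reads were counted is not given in the sources used here. The mitochondrial and ribosomal genes (symbols starting mt-, Rps or Rpl) were removed before cells were filtered. The study's methods name this order and its results the reverse. As an alternative, the reverse order kept 5073 adherent cells, the number the study reports, against 5051 kept here. CPM, exact intervals, thinning (5000 UMIs, fixed seed), log2 ratios (1 CPM added, at least 200 UMIs) and figures used matplotlib 3.10.9, pandas 2.3.3, scipy 1.17.1 and numpy 2.4.6 under Python 3.11.15. Clusters and neighbours came from Seurat 5.3.0 under R 4.3.3 (2000 variable genes without Spp1, 17 PCs, resolution 1.0), and TMM factors from edgeR 4.0.16. The ratio script was tested on simulated data. No doublet caller was run. Cells and the 22 gene lists were chosen with earlier results of these data known. Named were Spp1, Il11, Areg and Lcn2, the 15 highest and 10 lowest ratios, up to 4 genes per list with its Spp1 receptors, and the 8 genes most like Spp1, except for genes not reported here. Other genes were named after their values were seen. Depth per cell is given in the text and limits genes of few UMIs.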

Additional observations from a re-analysis of the deposited data

Results flagged for a closer look

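Spp1 also appeared outside the cells analysed. In the 713 adherent barcodes that the cell filter left out, it was at 51.02 CPM (31.2 to 78.8), on 20 UMIs in 6 barcodes, beside 56.9 CPM (54.7 to 59.1) in the kept cells. Of the 20 UMIs, 12 were in 1 barcode. The 675 neurosphere barcodes left out had 26 UMIs in 6 barcodes, at 45.2 CPM (29.6 to 66.3), beside 10.3 CPM in the kept neurosphere cells. Of the 26 UMIs, 9 were in 1 barcode. The source of these counts was not tested.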

How the results depend on the processing

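With 1 library per culture, no difference has a replicate check, and genes of few UMIs are limited by depth. No paired analysis was possible because each culture has 1 library and no test was run. The share of cells with Spp1 was 9.70%, and 4.75% with at least 2 UMIs of Spp1, 3.11% with at least 3 and 6.94% after thinning. The counts of genes at least 2-fold higher and lower, 20 and 17, became 50 and 75 with at least 2 UMIs, 70 and 160 with at least 3, and 44 and 111 after thinning. They became 60 and 40 over genes with at least 1 UMI, 10 and 5 over genes with at least 1000, and 10 and 1 with 10 CPM added. With 0.1 CPM added the lower genes were 35, and without cells over the 95th percentile of UMIs they were 28. Of the 20 and 17 genes, 18 and 14 were also called after thinning. The other settings, depth standardised, TMM scaling, mitochondrial and ribosomal genes in the total, cells under 10% mitochondrial UMIs and cells filtered first, gave 19 to 20 higher and 14 to 18 lower. The log2 ratio of Il11, 2.20, was 2.77 and 3.14 with at least 2 and 3 UMIs of Spp1, 2.43 after thinning and 2.45 without the 1% of cells with most Il11 in each group, a setting chosen after seeing the data. That of Areg, 1.35, was 1.97 and 2.34 with at least 2 and 3 UMIs. That of Lcn2, 1.67, was 2.44 and 2.19, and 1.03 without cells over the 95th percentile of UMIs. The cause of these moves was not tested. With 10 CPM added, 10 of the 20 higher and 1 of the 17 lower genes stayed past 2-fold. Leaving aside added CPM, the higher genes under 2-fold in at least 1 setting were Acod1, Hebp1, Nppb, Ecm1 and Tmsb4x. The lower ones were BC037039, Dnm3, Fgfr3, Grik2, Opcml, Serinc5 and Timp4. In neurosphere cells, weighting to equal depth, also chosen after seeing the data, turned Enpp2 from -0.23 to 0.56. Over the settings in adherent cells no sign changed among the 37 called genes, of whose 353 values 55 moved beyond counting error, and 11 of 210 list medians moved likewise.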
